A study of Mus musculus with 16 samples.

Results

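The expression of 43 interferon-stimulated genes was examined in the colonic epithelium of mice in which Atoh1-expressing cells carry a fluorescent label. The genes were taken from a list of named interferon-stimulated genes and found by symbol among the 45513 genes counted, and all 43 passed the filter on low counts that left 15841 genes for testing. Live EpCAM+ cells of the colon had been separated by flow cytometry into tdTom+ and tdTom- cells. The 8 donors were Atoh1(WT)CreERT2; Rosa26tdTom/+ animals, adult males and females on a C57BL/6 background housed in a specific-pathogen-free facility, so that every mouse gave 1 sample of each population and there were 16 samples in all. CreERT2 sits downstream of the Atoh1 coding sequence in both alleles of these animals, including those that supplied the tdTom- cells, and the reporter is heterozygous, so tdTom marks cells in which Atoh1 was active at the time of tamoxifen and the cells that come from them. All 8 mice had tamoxifen, at 1 mg per day on 3 days. The question was how far each gene differed between the 2 populations, and how that difference compared with the spread between mice.

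Interferons are secreted proteins, of which cells release type I and type III on sensing viral or bacterial nucleic acid. Type I and type III interferons act on genes through the interferon-stimulated response element (ISRE), which STAT2 and IRF9 help to bind, and interferon gamma acts through the gamma-activated site (GAS). The induced genes encode sensors, transcription factors, enzymes that degrade or modify RNA and protein, and GTPases that attack the vacuoles of intracellular pathogens, and the epithelium of the gut keeps some of them at a resting level in the absence of infection.

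Sequences upstream of the genes are shown first, since the ISRE and the GAS are the sites through which interferon acts on them. RefSeq promoter windows of 300 bases (250 before to 50 after a start site, GRCm38.p6) were given for 32 of the 43 members, in 40 windows. The ISRE core was searched as GAAANNGAAA, or TTTCNNTTTC on the other strand, and the GAS core as TTCNNNGAA, which reads the same on both strands. An ISRE core lay in 20 of the 40 windows, against 3.44% of all 32851 windows, and a GAS core in 11 (27.5%), against 8.3%. Counted by gene, an ISRE core was found for 5 of the 6 members with a window that were higher in tdTom+ cells. It was found for 9 of the 20 that were lower and for 5 of the 6 that passed in neither direction. The share over all 27025 genes with a window was 3.99%. No window was given for Zbp1, Oas2, Gbp6, Ido1 and Ifi27, also higher, or for Parp9, Parp14 and Rtp4, also lower. An ISRE core overlapped a GAS core in 1 window, that of Bst2. A match is a description of the letters and not a mapped binding site.

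The windows of 5 members that differed in opposite ways between the populations, or between mice, are printed 5′ to 3′ on the strand of the gene, with every ISRE and GAS core in capitals. That of Ifit1 (chr19:34640639-34640938, plus strand) holds 2 ISRE cores, and that of Ifit1bl1 (chr19:34601919-34602218, minus strand) holds 1 that, like the first in Ifit1, starts 104 bases before the start site. A second window of Ifit1bl1 (chr19:34599378-34599677, not printed) holds 1 ISRE core that starts 23 bases before its start site. Isg15 (chr4:156200769-156201068, minus strand) holds 3 overlapping ISRE cores. Bst2 (chr8:71537423-71537722, minus strand) holds 2 ISRE cores, the first of which overlaps a GAS core, and Igtp (chr11:58199306-58199605, plus strand) holds a GAS core that starts 11 bases before its ISRE core. The first 3 genes were lower in tdTom+ cells, Bst2 was higher, and Igtp varied between mice.
Ifit1: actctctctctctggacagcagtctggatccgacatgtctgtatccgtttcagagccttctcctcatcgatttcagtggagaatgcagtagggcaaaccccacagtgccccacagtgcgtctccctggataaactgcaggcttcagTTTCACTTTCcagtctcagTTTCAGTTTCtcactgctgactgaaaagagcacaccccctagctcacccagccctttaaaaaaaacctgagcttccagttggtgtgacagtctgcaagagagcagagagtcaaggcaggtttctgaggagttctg
Ifit1bl1: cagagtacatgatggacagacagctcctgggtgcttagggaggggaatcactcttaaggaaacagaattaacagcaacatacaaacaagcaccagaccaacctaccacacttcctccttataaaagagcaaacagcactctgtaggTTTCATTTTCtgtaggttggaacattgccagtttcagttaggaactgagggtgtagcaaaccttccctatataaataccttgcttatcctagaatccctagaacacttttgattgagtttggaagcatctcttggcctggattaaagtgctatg
Isg15: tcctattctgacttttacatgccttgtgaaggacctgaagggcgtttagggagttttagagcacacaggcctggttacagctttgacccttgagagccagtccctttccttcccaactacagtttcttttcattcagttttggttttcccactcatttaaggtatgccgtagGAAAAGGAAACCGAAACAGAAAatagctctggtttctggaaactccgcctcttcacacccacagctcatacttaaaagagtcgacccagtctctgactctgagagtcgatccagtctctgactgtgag
Bst2: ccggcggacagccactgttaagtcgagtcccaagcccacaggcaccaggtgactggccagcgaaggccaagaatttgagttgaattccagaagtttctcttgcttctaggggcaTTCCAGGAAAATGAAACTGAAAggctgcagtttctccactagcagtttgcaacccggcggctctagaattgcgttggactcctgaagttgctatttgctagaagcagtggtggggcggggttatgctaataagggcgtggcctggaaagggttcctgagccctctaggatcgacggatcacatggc
Igtp: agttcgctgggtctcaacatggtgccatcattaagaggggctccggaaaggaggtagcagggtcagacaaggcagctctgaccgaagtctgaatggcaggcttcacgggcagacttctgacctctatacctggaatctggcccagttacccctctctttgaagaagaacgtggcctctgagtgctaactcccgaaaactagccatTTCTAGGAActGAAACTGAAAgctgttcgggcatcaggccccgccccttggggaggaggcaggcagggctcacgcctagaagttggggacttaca

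The sort was checked by Atoh1 and by Muc2, the main gel-forming mucin of goblet cells. Atoh1 was higher in tdTom+ cells by a log2 fold change of 4.54 ± 0.15 (SE) and Muc2 by 4.61 ± 0.22, and neither overlapped between the populations. All 9 goblet markers were higher in tdTom+ cells, while 9 of 10 absorptive, 8 of 8 enteroendocrine, 6 of 7 tested tuft and 4 of 4 tested stem cell markers were lower, and the summed levels of the tuft and stem cell markers overlapped between the populations (44.2 to 94.7 CPM in tdTom+ against 85.4 to 144.5 CPM for tuft, 133.1 to 177.1 against 163.1 to 261.9 CPM for stem). In such bulk samples, fewer cells of a type and less RNA per cell cannot be told apart. Total counts per sample ran from 16482530 to 24218367, except for 45791503 in the tdTom- sample of mouse 4, and 3 counts corresponded to between 0.0583 and 0.194 CPM, the read count scaled to the library size after TMM normalization.

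Of the 43 members, 11 were higher in tdTom+ cells and 23 were lower at a Benjamini-Hochberg adjusted p under 0.01, and 9 passed in neither direction. Over all genes tested, 25.5% were higher and 25.5% lower, so the share of members that were higher (25.6%) was close to the background and the share that were lower (53.5%) was above it. The median log2 fold change of the members was -0.34, against 0.00 for all genes tested. Every called member moved the same way in all 8 mice, 11 of 11 upward and 23 of 23 downward. The calls were made on these same values, so this is not separate support, and the share over all called genes was not computed. The 8 tdTom+ values and the 8 tdTom- values did not overlap for 19 members (44.2%), of which 15 were lower and 4 higher, against 30.5% of all genes tested. Ifit3, counted among the 23 and the 15, passed the filter through its tdTom- samples only. Gbp3 and Ido1, counted among the 11, reached the level that the filter asks for in all 8 tdTom+ samples. Of the 8 tdTom- samples, 5 reached it for Gbp3 and 3 for Ido1. A fit that paired the samples by mouse gave 13 higher and 23 lower.

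**Figure D1:**
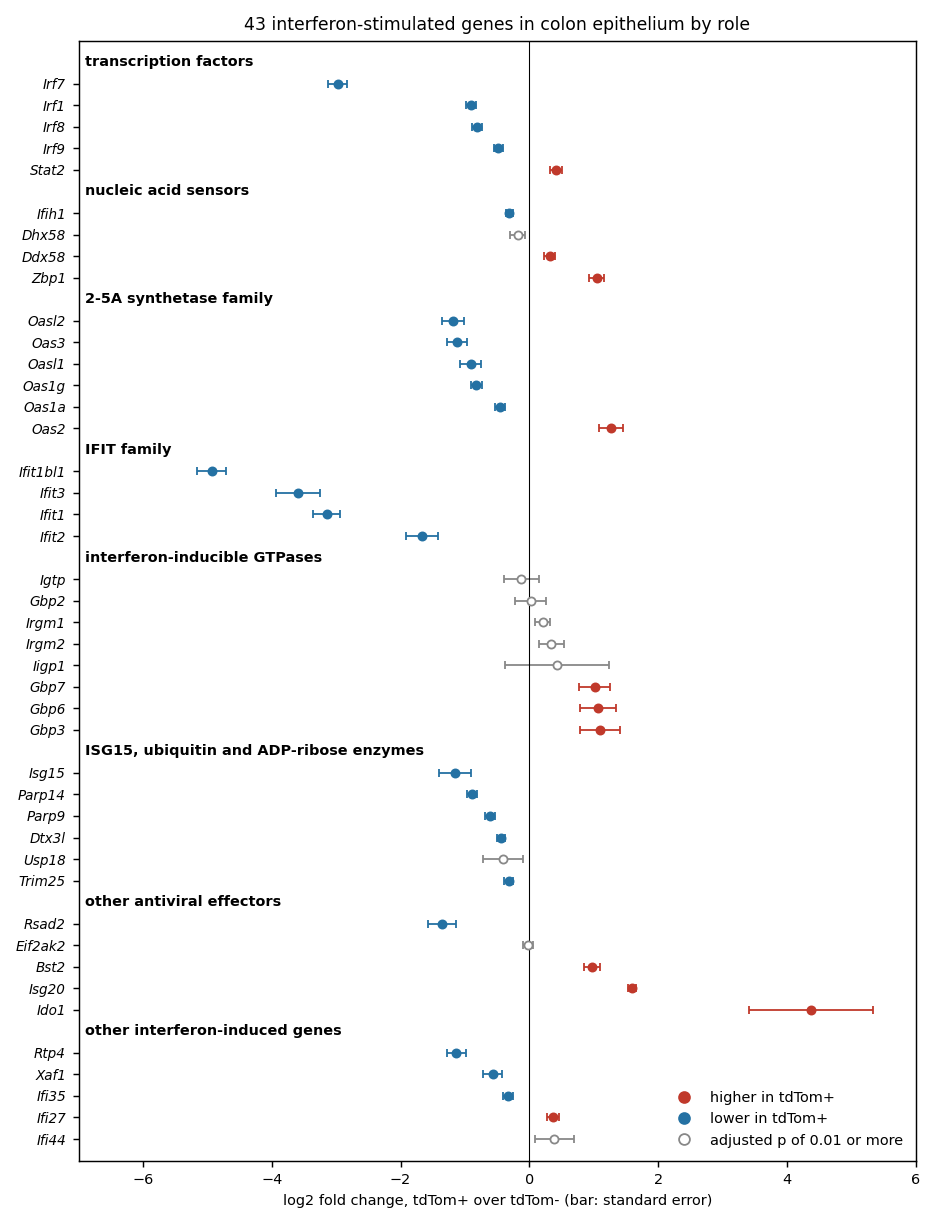
Log2 fold change of each of the 43 members between tdTom+ and tdTom- cells (x axis), grouped by role, with bars for the standard error over 8 mice in each population. Filled points passed an adjusted p of 0.01 (red higher, blue lower in tdTom+ cells) and open points did not. Ifit1bl1, Ifit3, Ifit1 and Irf7 lie farthest to the left, no GTPase lies among the blue points, and Ido1 lies farthest to the right with the widest bar among called members. Ifit3 passed the filter on low counts through its tdTom- samples only.

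Among the transcription factors, Irf7, Irf1, Irf8 and Irf9 were lower in tdTom+ cells and Stat2 was higher. IRF7 amplifies type I interferon production once it is itself induced, and its gene (ENSMUSG00000025498, chr7:141262706-141266481) had 14.45 to 23.9 CPM in tdTom+ samples (median 18.1) and 105 to 243 CPM in tdTom- samples (median 131). Every tdTom+ sample was far below every tdTom- sample, and the log2 fold change was -2.98 ± 0.15 (SE), with an adjusted p of 6.55e-13. Stat2, a subunit of the complex that binds the ISRE, went the other way by a smaller amount. Its level ran from 33.3 to 49.7 CPM in tdTom+ samples (median 45.6) and from 28.9 to 38.8 CPM in tdTom- samples (median 32.2), for a log2 fold change of 0.42 ± 0.09 (SE, adjusted p 5.54e-04). The groups overlapped, although the tdTom+ sample was the higher one in 8 of 8 mice. Irf1 and Irf8, which encode activators of interferon gamma responses, had log2 fold changes of -0.90 and -0.81, and Irf9, the DNA-binding partner of STAT2, of -0.48, each with no overlap between the populations.

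The 4 sensors of nucleic acid did not share a direction. Zbp1, which encodes a sensor of Z-form nucleic acid that can trigger cell death, was at 14.1 to 22.0 CPM in tdTom+ samples (median 17.3) and at 6.51 to 12.4 CPM in tdTom- samples (median 8.05). The groups did not overlap, and the log2 fold change was 1.04 ± 0.11 (SE, adjusted p 7.96e-08). Of the 3 RIG-I-like receptors, Ddx58 (RIG-I itself) was higher by 0.31 on the log2 scale and Ifih1 (MDA5) lower by the same size of difference. Ifih1 had 42.6 to 51.9 CPM in tdTom+ samples (median 48.9) and 53.5 to 66.0 CPM in tdTom- samples (median 60.4), without overlap (log2 fold change -0.31 ± 0.06, SE, adjusted p 4.91e-05). Dhx58 (LGP2), which modulates the other two, had a log2 fold change of -0.18 that did not pass (adjusted p 0.195).

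The 2-5A synthetase family includes the enzymes that make the oligoadenylate that activates RNase L. Of its 6 genes here, synthetase-like ones included, 5 were lower in tdTom+ cells. Oasl2, which encodes a synthetase-like protein, was at 4.12 to 9.79 CPM in tdTom+ samples (median 5.71) and at 11.2 to 17.6 CPM in tdTom- samples (median 15.5), with no overlap (log2 fold change -1.19 ± 0.17, SE, adjusted p 4.18e-06). Oas3, Oasl1, Oas1g and Oas1a had log2 fold changes of -1.12, -0.91, -0.82 and -0.45. Oas2, although it lies next to Oas3 in the same 177 kb stretch of chromosome 5 that holds Oas1a and Oas1g, was higher in tdTom+ cells. It had 1.90 to 3.23 CPM there (median 2.60) and 0.574 to 1.59 CPM in tdTom- samples (median 1.07), again without overlap (log2 fold change 1.27 ± 0.19, SE, adjusted p 4.99e-06). Oas1a and Oas1g are close paralogs whose short reads could be divided between them in the counting, so their separate values are uncertain.

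The IFIT family, whose proteins bind viral RNA that lacks host modifications of the cap, was lower in all of its 4 members. All 4 lie within 99.3 kb of chromosome 19. Ifit1bl1 (ENSMUSG00000079339, chr19:34592888-34601968), an Ifit1-like gene, had 2.76 to 6.52 CPM in tdTom+ samples (median 3.97) and 57.4 to 184 CPM in tdTom- samples (median 127). Its log2 fold change of -4.94 ± 0.22 (SE, adjusted p 9.04e-14), a 30.6-fold difference, was the largest downward one among the members. Expressed per kilobase of exon, Ifit1bl1 had the highest level of the 43 members in tdTom- cells (56.0 CPM per kb, median) and ranked 28th in tdTom+ cells (1.75 CPM per kb). Ifit1 and Ifit3 had log2 fold changes of -3.15 and -3.59, with no overlap, and Ifit2 of -1.67, with overlap. Ifit3 passed the filter through its tdTom- samples only, since none of its 8 tdTom+ samples reached the 0.517 CPM that the filter asks for. Its lower level is therefore not separate support for the direction of the family. Ifit1 and Ifit2 each reached that level in 7 of 8 tdTom+ and 8 of 8 tdTom- samples. Reads of Ifit3 could also be divided with those of its near-identical copy Ifit3b, which had a log2 fold change of -3.41.

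The interferon-inducible GTPases, which in mice act on the membranes of pathogen vacuoles, formed the only one of the 8 role groups with no member lower in tdTom+ cells by edgeR, and 0 were lower at an unadjusted p under 0.05 or by DESeq2. Gbp3, Gbp6 and Gbp7 were higher, and Gbp2, Igtp, Irgm1, Irgm2 and Iigp1 passed in neither direction. Gbp3 had 1.14 to 4.41 CPM in tdTom+ samples (median 1.95) and 0.406 to 1.86 CPM in tdTom- samples (median 0.857). The groups overlapped, all 8 mice had the higher value in tdTom+ cells, and the log2 fold change was 1.09 ± 0.31 (SE, adjusted p 4.74e-03). Without mouse 1, 3 or 5 the adjusted p of Gbp3 lay above 0.01, at 0.0115, 0.0111 and 0.0137. Gbp3 reached the level that the filter asks for in 8 of 8 tdTom+ and 5 of 8 tdTom- samples. Its higher level is therefore not separate support for the direction of the group. Gbp6 and Gbp7 had log2 fold changes of 1.07 (adjusted p 2.49e-03) and 1.02 (adjusted p 1.01e-03), and without mouse 7 Gbp6 was at 0.93 (adjusted p 0.0128). Irgm1 and Irgm2, which guard the cell's own membranes, were called higher only with the mouse as a block (log2 fold change 0.22, adjusted p 1.84e-03, and 0.37, adjusted p 6.38e-04). The annotated spans of Igtp and Irgm2 overlap on the plus strand of chromosome 11, and reads of the closely related GBP genes could be divided among them, so the separate values of these genes are uncertain.

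ISG15 is a ubiquitin-like protein, and with it were grouped the enzymes that attach or remove ubiquitin-like or ADP-ribose groups. Of these 6 genes, 5 were lower in tdTom+ cells. Isg15 had 0.717 to 3.20 CPM in tdTom+ samples (median 1.65) and 2.50 to 5.88 CPM in tdTom- samples (median 3.80), with overlap between the groups but a lower value in tdTom+ cells in 8 of 8 mice (log2 fold change -1.16 ± 0.25, SE, adjusted p 4.01e-04). Parp14, Parp9 and their neighbour and partner Dtx3l lie within 140 kb of chromosome 16 and had log2 fold changes of -0.89, -0.60 and -0.44, all without overlap. Trim25, the ubiquitin ligase that acts on RIG-I, was at -0.32. Usp18, which removes ISG15 and restrains type I signalling, had a log2 fold change of -0.40 ± 0.31 that did not pass (adjusted p 0.266).

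The other antiviral effectors were mostly higher in tdTom+ cells, namely Ido1, Isg20 and Bst2. Ido1 (ENSMUSG00000031551, chr8:24584136-24597009) encodes the enzyme that starts the breakdown of tryptophan. It had 1.44 to 88.4 CPM in tdTom+ samples (median 4.86) and 0 to 4.06 CPM in tdTom- samples (median 0.162), where the median was near the level of 3 counts. The ranges overlapped only through the tdTom- sample of mouse 6, and the tdTom+ sample was the higher in 8 of 8 mice. The log2 fold change was 4.37 ± 0.97 (SE, adjusted p 5.60e-04), the largest upward one among the members, and 4.01 (adjusted p 1.24e-06) without mouse 6. Ido1 passed the filter mostly through its tdTom+ samples, as 3 of its 8 tdTom- samples reached the required level.

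Rsad2 (viperin), which makes a chain-terminating nucleotide, went the other way. It had 2.77 to 7.38 CPM in tdTom+ samples (median 3.42) and 6.30 to 17.4 CPM in tdTom- samples (median 9.09), with overlap (log2 fold change -1.36 ± 0.22, SE, adjusted p 1.89e-05). Isg20, an exonuclease that degrades viral RNA and is singled out here after its values were seen, had 28.9 to 38.0 CPM in tdTom+ samples (median 34.4) and 10.3 to 12.7 CPM in tdTom- samples (median 11.6). Its difference of 1.59 ± 0.06 (log2, SE, adjusted p 1.99e-14) was the largest of the 43 members relative to the spread between mice, at 14.1 times the SD within a population. Bst2 (tetherin), which holds budding virus particles at the cell surface, had a log2 fold change of 0.97 without overlap, and per kilobase it had the highest median of the members in tdTom+ cells (22.1 CPM per kb) and the 11th in tdTom- cells (10.04 CPM per kb). Eif2ak2 (PKR), the kinase that stops translation on sensing double-stranded RNA, had a log2 fold change of -0.02 ± 0.08.

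Of the 5 remaining genes, Rtp4, Xaf1 and Ifi35 were lower and Ifi27 was higher in tdTom+ cells. Rtp4, which encodes a receptor transporter protein, was at 1.53 to 2.92 CPM in tdTom+ samples (median 2.03) and at 3.71 to 6.41 CPM in tdTom- samples (median 4.77), without overlap (log2 fold change -1.14 ± 0.15, SE, adjusted p 8.58e-07). Ifi27 had 25.5 to 41.2 CPM in tdTom+ samples (median 30.1) and 20.1 to 28.2 CPM in tdTom- samples (median 23.3), and these ranges overlapped (log2 fold change 0.37 ± 0.10, SE, adjusted p 3.30e-03). Xaf1, a gene linked to cell death, and Ifi35 had log2 fold changes of -0.57 and -0.34. Ifi44 had a log2 fold change of 0.39 ± 0.31 that did not pass. Without mouse 1 the adjusted p of Ifi27 was 0.0102, and without mouse 4 that of Xaf1 was 0.0129.

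**Figure D2:**
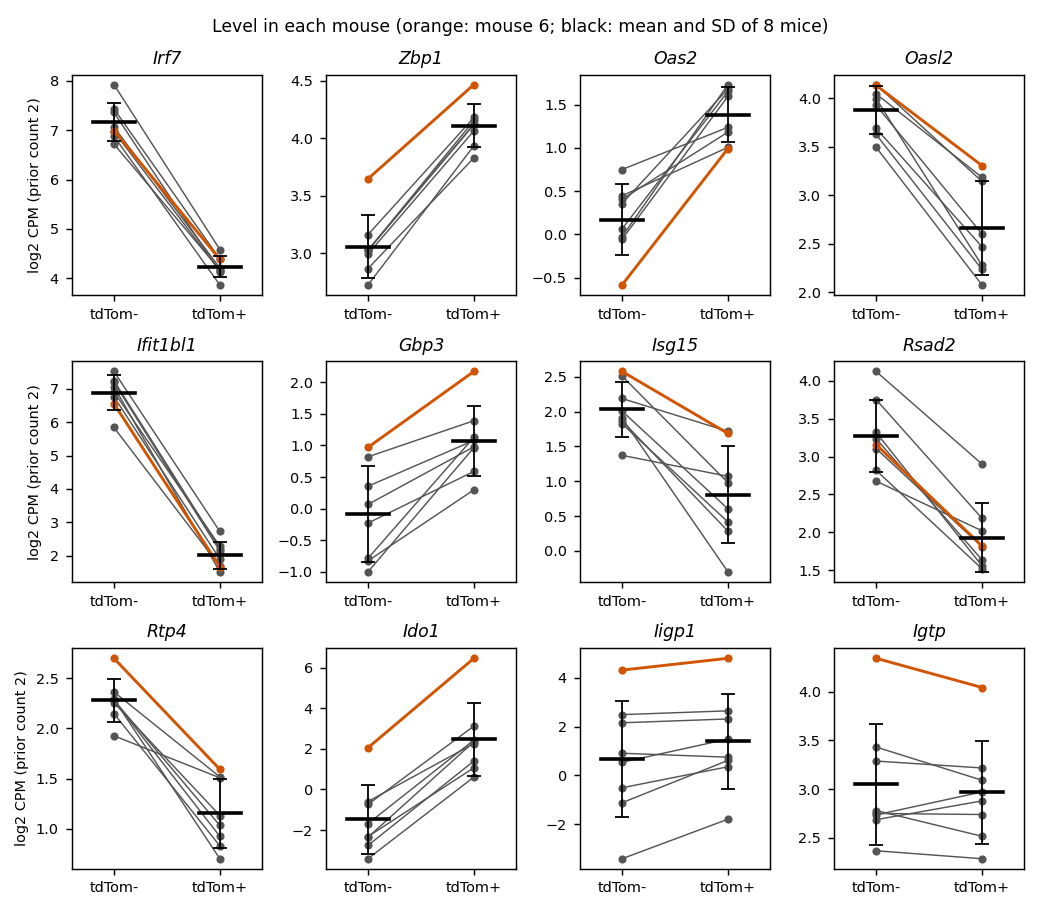
Level of 12 members in the tdTom- and tdTom+ sample of each mouse, as log2 CPM with a prior count of 2 (y axis, own scale in each panel). A line joins the samples of 1 mouse, mouse 6 is orange, and black bars give the mean and SD of 8 mice. The lines of Irf7 and Ifit1bl1 fall steeply and together in all 8 mice, those of Zbp1 and Ido1 rise, and in the panels of Ido1, Iigp1 and Igtp the orange line lies above all others at both ends.

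Markers of immune, stromal and endothelial cells were measured in both populations. The summed level of 12 T, B and NK cell markers ranged between 1.66 and 3.56 CPM in the tdTom+ population and between 3.93 and 10.8 CPM in the tdTom- one, and 1 of the 12 had enough counts to be tested (Ptprc, log2 fold change -1.52). Over all 16 samples together, Ptprc (CD45) had 1396 counts, the B cell marker Ms4a1 126, and the other 10 between 0 (Cd4) and 26 (Cd3e). The summed level of 12 myeloid and plasmacytoid markers was 7.28 to 14.3 CPM and 9.25 to 38.2 CPM. Over all samples Itgam had 1849 counts, Lyz2 809, Flt3 626, Cd68 489, and the other 8 between 5 and 105. The 10 stromal and endothelial markers summed to 7.47 to 15.5 CPM and 11.8 to 24.3 CPM, and of the 3 tested 2 (66.7%) were lower in tdTom+ cells. The part of these cells in the lower level of members such as Irf7 or the IFIT genes in tdTom+ samples was not tested.

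Genes that act before and around the members were taken from lists of the pathway. None of 9 interferon genes had enough counts to be tested, 7 had no count in any sample, and the 9 together had 5 counts over all 16 samples. Over all genes tested, 25.5% were higher and 25.5% lower. Of 6 receptor genes, 4 (66.7%) were lower in tdTom+ cells. Ifngr1 and Ifngr2, the chains of the interferon gamma receptor, had log2 fold changes of -1.22 and -0.81, and Ifnlr1 (type III receptor) and Ifnar1 (type I receptor) of -0.44 and -0.36. Of 12 genes of JAK-STAT signalling and its inhibitors, 4 were higher (Socs2 at 0.51, Jak1 at 0.41, Ptpn1 at 0.38 and Stat3 at 0.33) and 2 were lower (Cish at -0.96 and Jak2 at -0.41). At 33.3% and 16.7% of a short list, these shares were near those of all genes tested. Of 11 adaptors and kinases tested, Tlr3 was higher (9.09%) and Tbk1, Mb21d1 (cGAS) and Ticam1 were lower (27.3%), the latter share again near that of all genes tested.

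A list of 32 interferon-stimulated genes that are not among the members gave 25 that were tested. Of these, 2 (8.0%) were higher and 10 (40.0%) lower, against 25.5% each way of all genes tested, with a median log2 fold change of -0.43. Mx1 and Oas1c were higher, by 0.85 and 0.68 on the log2 scale. The largest downward values were those of Ifit3b (-3.41), of Gbp8 (-1.82), whose family members Gbp3, Gbp6 and Gbp7 were higher, and of Lgals3bp (-1.16).

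The spread between mice was then set against these differences. The size of the mean paired difference exceeded the SD between mice within a population for 34 of the 43 members, and the other 9 were the 9 that passed in neither direction. The call rests on that same spread, so this match follows from the call and is not separate support. The mean paired difference exceeded its own SD over the 8 mice for 37 members, which added Irgm1, Irgm2 and Iigp1. Neither share was computed over all genes tested. The median SD over the 8 mice was 0.28 in tdTom+ and 0.27 in tdTom- samples on the log2 CPM scale. A test of the 7 mouse coefficients together, in a fit with mouse and population, passed an adjusted p of 0.01 for 11 members (25.6%), against 5.81% of all genes tested. Of these, 6 were among the 8 GTPases (Gbp2, Gbp7, Igtp, Irgm1, Irgm2 and Iigp1), and the others were Ido1, Ifit1bl1, Oasl1, Rsad2 and Irf7.

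**Figure D3:**
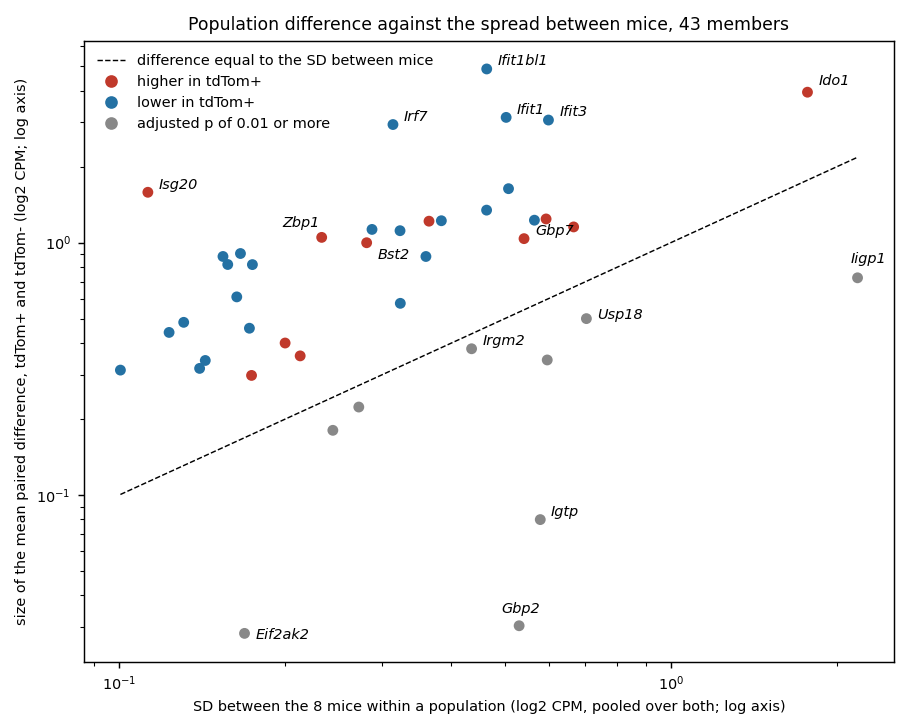
Size of the mean paired difference between the populations (y axis, log2 CPM, log axis) against the SD between the 8 mice within a population, pooled over both (x axis, log2 CPM, log axis), 1 point for each of 43 members. On the dashed line both are equal: the 34 called members lie above it and the 9 others below it. The call uses the same spread, so this split follows from the call. Isg20 has a small spread for its difference, and Iigp1 and Ido1 lie farthest to the right.

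The 3 members with the smallest adjusted p between mice were Ido1 (1.47e-09), Iigp1 (2.05e-08) and Igtp (1.89e-05), and in each of them mouse 6 had the highest level in both populations. For Ido1, mouse 6 had 88.4 CPM in tdTom+ cells against 1.44 to 8.64 CPM in the other 7 mice, and 4.06 CPM in tdTom- cells against 0 to 0.569 CPM. The first was 18.8 times the median of the other mice, and no ratio is given for the second because the other mice were near the level of 3 counts. For Iigp1, a GTPase of the IRG family, mouse 6 had 27.7 CPM in tdTom+ cells against 0.194 to 6.16 CPM and 19.8 CPM in tdTom- cells against 0 to 5.52 CPM. The order of the mice was nearly the same in both populations, with mouse 3 lowest and mouse 4 second. For Igtp (IRGM3), mouse 6 had 16.4 CPM against 4.78 to 9.21 CPM in tdTom+ cells and 20.2 CPM against 5.07 to 10.7 CPM in tdTom- cells. Iigp1 and Igtp did not pass between populations in the fit without a mouse term (log2 fold changes 0.43 ± 0.80 and -0.12 ± 0.27, SE). With the mouse as a block, Iigp1 was at 0.46 ± 0.17 (adjusted p 0.0229) and Igtp at -0.09 ± 0.09 (adjusted p 0.356). The tdTom+ sample was the higher one in 7 of 8 mice for Iigp1 and in 2 of 8 for Igtp. In these genes the mice differed, and neither fit told the populations apart at an adjusted p of 0.01.

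Mouse 6 had the highest value in both populations for 14 of the 43 members (32.6%), against 1.24% of all genes tested, and no other mouse did so for more than 4. The 14 were Gbp2, Gbp3, Gbp7, Igtp, Irgm1, Irgm2 and Iigp1 among the GTPases, and Irf1, Zbp1, Ifit2, Parp9, Dtx3l, Ido1 and Rtp4. The median deviation of the 8 GTPases in mouse 6 from the mean of the 8 mice was 0.87 in tdTom+ and 1.01 in tdTom- cells (log2 CPM), while the median over all genes tested was 0.01 in both. Mouse 2 was the highest in both populations for Irf7, Irf9, Oasl1 and Rsad2, none of which was among the 14. Without mouse 6, 8 members differed between mice (Irf7, Oasl1, Ifit1bl1, Gbp7, Irgm1, Iigp1, Rsad2 and Ido1), against 5.96% of the genes tested, and the adjusted p of Igtp rose to 0.0141. The mouse numbers in the labels form 3 series. Among mice 5 to 8 alone, which are 1 of them and include mouse 6, 8 members differed between mice (Irf1, Ifit1bl1, Gbp2, Igtp, Irgm1, Irgm2, Iigp1 and Ido1), against 1.73% of the genes tested there, and among mice 1 to 3 alone 1 did (Iigp1), against 0.981%. The summed levels of T, B and NK cell markers in mouse 6 (3.23 CPM in its tdTom+ sample and 6.12 CPM in the other) and of myeloid markers (7.28 and 10.7 CPM) lay within the ranges of the other mice or, for myeloid markers in tdTom+ cells, were the lowest. The summed level of stromal and endothelial markers in mouse 6 was 15.5 CPM in its tdTom+ sample, the highest of the 8, and 16.5 CPM in its tdTom- sample, and the part of such cells in the levels of mouse 6 was not tested.

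**Figure D4:**
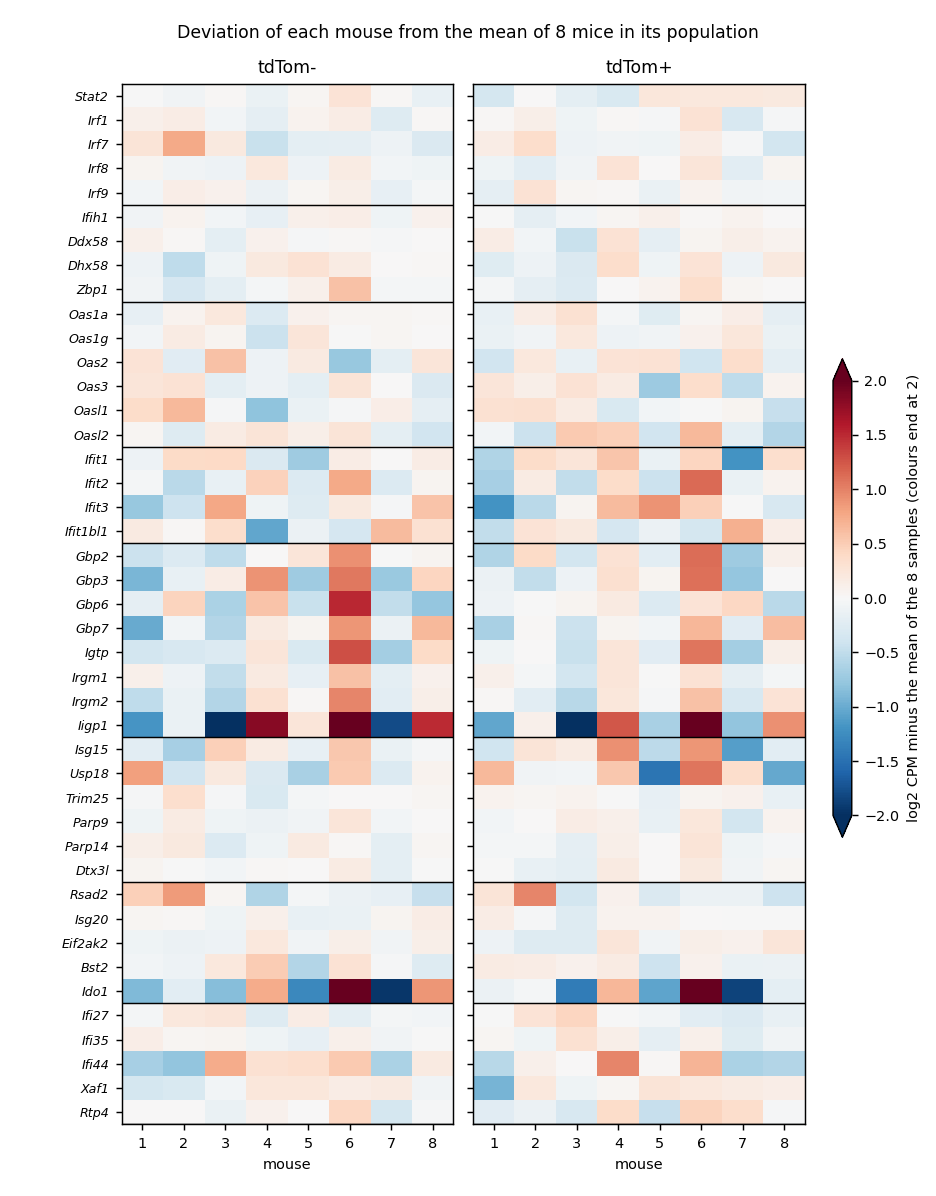
Deviation of each sample from the mean of the 8 samples of its population (colour, log2 CPM, ending at 2 in either direction) for the 43 members (rows, ordered by role, black lines between roles) and 8 mice (columns), tdTom- at left and tdTom+ at right. The GTPase rows and Ido1 are red in mouse 6 in both panels, and Irf7 and Rsad2 are reddest in mouse 2.

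The levels of a member in the 2 populations of the same mice were also compared over the 8 mice. Pearson's r was above 0 for 41 of the 43 members, with a median of 0.62, and 10 passed an adjusted p of 0.05 in an exact two-sided permutation test over the 40320 pairings, adjusted over the 43 members. Spearman's rho passed for 5. The share of all genes tested with r above 0 was not computed. Over all genes tested, the deviations of the 2 samples of 1 mouse also correlated, at 0.223 to 0.408. A positive r is therefore not a trait of the members alone. The highest were Gbp7 (r = 0.978, rho = 0.976, exact permutation p 1.74e-04 and 3.97e-04, adjusted 7.47e-03 and 0.0171) and Iigp1 (r = 0.970, rho = 0.952, exact permutation p 5.46e-04 and 1.14e-03, adjusted 0.0117 and 0.0240). Without the 2 mice farthest from the median, r was 0.961 for Gbp7 and 0.902 for Iigp1. For Ido1 r was 0.947 (exact permutation p 1.49e-03, adjusted 0.0154) and rho 0.762 (p 0.0368, adjusted 0.122), and r without mice 6 and 7 was 0.707. The 3 series of mouse numbers in the labels hold 3, 1 and 4 mice, too few for a correlation within them.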

How the data were processed

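RNA of EpCAM+ tdTom+ and EpCAM+ tdTom- colon cells from 8 mice was sequenced as stranded mRNA libraries. The authors aligned single-end reads to GRCm38 (GRCm38.p3 in the submitters' processing notes) with TopHat2 2.1.1 and deposited unnormalized read counts per gene for each of 16 samples, made on exons from primary alignments on the reverse strand. The file headers name featureCounts 1.5.0-p1, and the processing notes name Subread 1.5.2 and DESeq2 1.14.1. Symbols came from GENCODE M21, also GRCm38, for 44585 of the 45513 genes, and Mb21d1 was matched through a RefSeq synonym. Coordinates of genes are those of the deposited files. Samples of 1 population differed by more than sampling noise in every pair (chi-square per degree of freedom of at least 11.5), so all were kept as separate samples.

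The populations were tested by edgeR 4.0.16 under R 4.3.3, with filterByExpr and TMM scaling ahead of the quasi-likelihood F test (glmQLFit, glmQLFTest), over all 15841 genes and without a mouse term. A gene was called at a Benjamini-Hochberg adjusted p below 0.01. Each standard error is the size of the log2 fold change divided by the square root of F. Log2 CPM used a prior count of 2. Differences between mice were tested with all mouse coefficients together in the fit with mouse and population. Tables and correlations were made in Python 3.11.15 with scipy 1.17.1, and the procedure was tested on simulated counts.

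The mouse numbers in the titles pair the samples, since each mouse gave both populations. Deviations from the population means correlated between the samples of 1 mouse at 0.223 to 0.408 and with those of any other mouse at 0.168 at most. Alternatives were the mouse as a replicate block, DESeq2 1.42.0, RLE and upper-quartile normalization, no filter, at least 10 counts in every sample, an adjusted p under 0.05, mice 1 to 3 or mice 5 to 8 alone, and each mouse left out in turn.

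The members, role groups and pathway and marker lists were chosen with earlier results of these data known. Values were given for the called members with the largest change in each direction within a role group and for the 3 members with the smallest adjusted p between mice. Pathway genes were named where they were called, largest changes first. Total counts set the precision, and floors of 3 counts cover counting error only. Promoter sequences are from RefSeq and none was given for 11 members. Samples from the small intestine were not analysed here.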

Additional observations from a re-analysis of the deposited data

Results flagged for a closer look

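In each population the highest and the lowest of the 8 values of every member, as log2 CPM, and of the total counts were checked by Dixon's test at the 95% level. Of 88 groups checked 8 stood out, and chance alone flags about 1 in 20 groups.

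Mouse 6 had 3 of these values. Ido1 was at 6.47 in its tdTom+ sample, against 0.61 to 3.13 in the other mice. In its tdTom- sample Zbp1 was at 3.65, against 2.72 to 3.16, and Stat2 at 5.28, against 4.86 to 5.05. All 3 lay above the other mice.

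Mouse 3 had 2 low values, Ddx58 at 3.88 in tdTom- cells (4.05 to 4.17 in the other mice) and Isg20 at 4.86 in tdTom+ cells (5.08 to 5.25). Oas1g was low in the tdTom- sample of mouse 4, at 4.72 against 5.08 to 5.38, and Xaf1 in the tdTom+ sample of mouse 1, at 0.47 against 1.31 to 1.66. The tdTom- sample of mouse 4 also had the largest total, 45791503 counts, where the remaining samples of that population had 18318172 to 20668605. The part of this depth in the level of Oas1g was not tested.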

How the results depend on the processing

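The counts of members that were higher, lower and different between mice were 11, 23 and 11. With the paired fit (replicate block) 13 were higher and 23 lower, the added calls being Irgm1 and Irgm2, and it ended no call. Members higher numbered 6 in mice 1 to 3 alone and 7 in mice 5 to 8 alone, and members lower 17 and 23. Fewer samples were fitted there, and the part of that in these counts was not tested. Members different between mice numbered 17 with DESeq2, 23 with no filter and 20 at an adjusted p under 0.05, but 1 in mice 1 to 3 alone and 8 in mice 5 to 8 alone. The cause of the higher counts with DESeq2 and with no filter was not tested. With each mouse left out in turn, 9 to 11 members were higher, 22 to 23 lower and 8 to 12 different between mice. Of 680 values of single members under the alternatives, 650 kept their direction and side of the threshold, 21 fell short of it, 2 newly passed it and 7 changed sign. None of the sign changes was in a called member. Gbp2, at 0.02, was -0.14 in mice 5 to 8, -0.01 with the replicate block and -0.05 to 0.10 with each mouse left out. Igtp, at -0.12, was 0.08 in mice 1 to 3. Eif2ak2, at -0.02, was 0.05 in mice 5 to 8 and -0.04 to 0.01 with each mouse left out. Depth limits Ifit3 in tdTom+ cells and Ido1 and Iigp1 in tdTom- cells, where some samples had no count. Reads of close paralogs may have been divided between genes. P-values of the population test without a mouse term set the difference, unpaired, against the spread between 8 mice of 1 line. Those of the mouse test set differences between mice against the spread left within mice after the population term. With 1 sample per mouse and population, a mouse cannot be told apart from the preparation its samples shared. Those of the correlations come from the permuted pairings.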
